A study of Mus musculus with 2 samples.

Results

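The cells described here are neutrophils and neutrophil-like barcodes from a marrow culture that hold S100a8 and S100a9 RNA but almost no RNA of the secondary granule genes Camp, Ngp and Ltf. A barcode was taken when it had at least 800 unique molecular identifiers (UMIs, counted RNA molecules), at least 300 genes and at most 10% mitochondrial UMIs. In addition, S100a8 and S100a9 together had to make up at least 3% of its UMIs, and Camp, Ngp and Ltf together less than 0.5%. The rule took 1232 of the 16657 barcodes that passed the first 3 limits, from 21428 barcodes in all. The cells were thus selected on the measured levels of these 5 genes, which are given only as a description.

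Both libraries came from wild-type marrow of a single male C57BL/6J mouse, 3 months old. Cells were kept for 48 h in medium depleted of hormones with 5 ng/mL M-CSF, a growth factor of the monocyte lineage. The next 24 h brought 30 ng/mL RANKL, which drives osteoclast formation, 10 ng/mL human TNF and M-CSF raised to 100 ng/mL, after which adherent cells were collected. The DHT culture contained 1 nM 5α-dihydrotestosterone, an androgen, in both steps, and the Vehicle culture ethanol. The labels call the cultured cells osteoclast precursors. Of the barcodes that passed the first 3 limits, the cells described here were 9.86% in DHT and 5.17% in vehicle. Immature neutrophils, defined below, were a further 15.1% and 7.82%. Each group is 1 library, so the differences below lack any replicate check, no test between groups was possible, and the treatment cannot be told apart from the culture or the library. All intervals are 95% intervals and cover counting error only.

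Neutrophils make their granules in order as they mature: primary granule proteins such as Elane and Mpo in promyelocytes, secondary granule proteins such as Camp, Ngp and Ltf in myelocytes, and tertiary granule proteins such as Mmp9 later. Mature cells stop transcribing granule genes and carry the chemokine receptor Cxcr2, the formyl peptide receptor Fpr1 and transcripts of inflammatory mediators such as Il1b and Cxcl2. Type I interferons bind the receptor of Ifnar1 and Ifnar2, and through Jak1 and Tyk2 activate a transcription factor complex that includes Irf9. This complex binds the interferon-stimulated response element and induces interferon-stimulated genes, many of which are antiviral.

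The DHT library held 10798 barcodes with 319430510 UMIs and the vehicle library 10630 with 453802415 UMIs. Of the 1232 cells chosen, 780 were among the 7911 passing DHT barcodes (9.86%, exact binomial interval 9.21 to 10.5%) and 452 among the 8746 passing vehicle barcodes (5.17%, 4.71 to 5.65%). The share was 1.91 times as high in the DHT library. Cells that met the S100 limit but had at least 0.5% of the secondary granule genes, here called immature neutrophils, differed by nearly the same factor. They numbered 1198 and 684, or 15.1% and 7.82%, a ratio of 1.94. The libraries shared 33 barcode sequences, none of them among the chosen cells. S100a8 and S100a9 made up 3.04% of all UMIs of the DHT library and 0.997% of those of the vehicle library. These are shares of pooled UMIs, to which the S100-rich cells themselves add, and not the share in a typical barcode. How much free RNA adds to the count of members was not tested.

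The chosen cells fell into groups of very different RNA content, which the plot of UMIs per cell shows. A limit of 20000 UMIs, set after the values were seen and using no gene, left 637 DHT and 372 vehicle cells below it. These cells had a median of 7709 and 5768 UMIs and 2108 and 1788.5 genes. The 143 DHT and 80 vehicle cells above it had medians of 58845 and 42178 UMIs. Few cells lay near the limit: 6 and 1 had 16000 to 20000 UMIs, and 6 and 16 had 20000 to 32000. The larger cells were 18.3% and 17.7% of the members but held 63.5% and 62.1% of their UMIs, so a plain sum over all members mostly describes them.

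**Figure D1:**
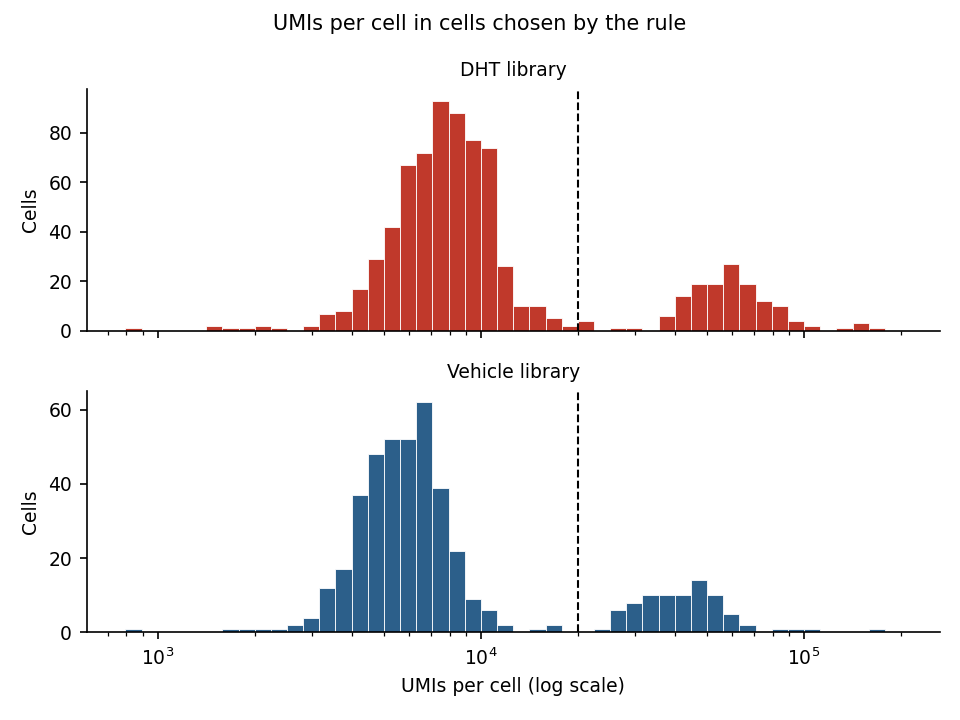
Number of chosen cells (vertical axis) by UMIs per cell (horizontal axis, log scale) in the DHT library (upper panel) and the vehicle library (lower panel). The dashed line marks 20000 UMIs; each library has a hump on either side of it, with medians of 7709 and 5768 UMIs below and 58845 and 42178 above.

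The name of a mature neutrophil held for the cells under 20000 UMIs and went against the data for the others. Il1b, the gene of interleukin 1 beta, was at 1588 CPM (counts per 1000000 UMIs of the set) in DHT and 1562 CPM in vehicle cells under the limit, against 13.6 and 8.28 CPM above it. Fpr1 was at 1557 and 1405 CPM below and 26.7 and 31.5 CPM above, and Cxcr2 at 768 and 635 CPM below and 21.8 and 10.8 CPM above. The order was turned for Elane, neutrophil elastase, at 3823 and 5176 CPM above the limit, and for Mpo, myeloperoxidase, at 1936 and 1992 CPM. The proliferation marker Mki67 stood at 334 and 298 CPM above the limit against 19.2 and 20.3 CPM below it. Clustering of the members gave 6 clusters, of which clusters 0, 1 and 3 held 1000 cells, all under 20000 UMIs. Clusters 4 and 5 (55 and 70 cells) were led by Elane, Prtn3, Ctsg, Mpo and Ms4a3, genes of granulocyte-monocyte progenitors. Cluster 2 (107 cells), led by Chil3, Hist1h1b, Prtn3, Fcnb and Pclaf, was left unnamed. Of the 1009 cells under 20000 UMIs, 9 fell in clusters 2 and 5. The results below are for the cells under 20000 UMIs, called small neutrophils, and values over all members are given where they differ.

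Cells at the edges of the rule were few and mixed. Between 3 and 3.5% S100a8 and S100a9 there were 26 DHT and 8 vehicle members, with Elane at 4145 and 1582 CPM. Just outside, between 2.5 and 3%, were 40 and 21 cells with Elane at 2734 and 1829 CPM. Between 0.4 and 0.5% Camp, Ngp and Ltf were 19 and 16 members, with Elane at 2933 and 4809 CPM, and between 0.5 and 0.6% were 16 and 7 cells with Elane at 3163 and 3401 CPM. Il1b in these edge groups ranged from 37.8 to 257 CPM, far below its level in the small neutrophils. These values are sums over small and larger cells together, so they do not describe the small edge cells alone. Of the members between 3 and 3.5%, 17 DHT and 1 vehicle cells were under 20000 UMIs. Of those between 0.4 and 0.5%, 13 and 8 were.

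The small neutrophils were 8.05% of passing DHT barcodes and 4.25% of passing vehicle barcodes, a ratio of 1.89. DHT cells had 1.34 times the median UMIs of vehicle cells, while the median share of S100a8 and S100a9 was 18.2% in both. S100a8 stood at 98027 and 98726 CPM and S100a9 at 100576 and 100546 CPM. Of the secondary granule genes that the rule kept low, Camp was at 270 and 237 CPM, Ngp at 403 and 302 CPM and Ltf at 25.4 and 8.14 CPM. The median mitochondrial share was 0.225% and 0.231%. Other abundant transcripts were those of ferritin heavy chain, Fth1, at 30976 and 32044.5 CPM, of lysozyme, Lyz2, at 11868 and 15393 CPM, and of the protease inhibitor Slpi, at 9060 and 9609 CPM.

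Their identity as mature cells showed most plainly beside the immature neutrophils of the same library. This is a description, since the rule separated both sets. Among 5549 genes with at least 20 CPM, 1364 (24.6%) were at least 1.5-fold higher in small neutrophils than in immature neutrophils in both libraries, and 1876 (33.8%) were lower in both. Il1b was 54.0-fold higher in DHT and 46.8-fold higher in vehicle cells. The chemokine gene Ccl3 was 32.0-fold and 36.5-fold higher, and Cxcl2 27.4-fold and 28.2-fold. Ptgs2, the inducible cyclooxygenase, was 97.4-fold and 104-fold higher. In the other direction, Chil3, a secretory protein of immature neutrophils, was at 54.8 and 24.9 CPM in small neutrophils against 6043 and 6524 CPM in immature ones. The ficolin gene Fcnb was at 6.94 and 2.26 CPM against 470 and 625 CPM.

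Between the libraries, the interferon-stimulated genes had the highest median ratio of the 21 gene lists in these cells. With DHT, 55 of the 59 measured genes of the type I interferon list were at least 1.5-fold higher and 0 were lower, with a median log2 ratio of 2.62. A list gene counted as measured at 2 CPM in 1 or both libraries; at that level 11.5% of all 10198 genes were at least 1.5-fold higher and 10.9% lower, with a median log2 ratio of -0.0038. Summed over the list, the level was 7207 CPM in DHT and 1331 CPM in vehicle small neutrophils, 5.41-fold apart. At 20 CPM or more, 44 of 46 list genes were higher. The 4 genes that did not reach 1.5-fold were Ifi203, Pnpt1, Znfx1 and Trim25, at ratios of 0.07, 0.24, 0.28 and 0.38 on the log2 scale.

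Promoter sequences are shown for 3 of the genes with a high ratio, because the response element named above can be read in them. They are the 200 bases before the RefSeq start of transcription on the gene's own strand, in build GRCm38.p6. Capitals mark matches to the core of the element, taken as 2 copies of GAAA with any 2 bases between them, or of TTTC where it lies on the other strand. Ifit1 lies on the plus strand at chr19:34640689-34640888, Rsad2 on the minus strand at chr12:26456453-26456652, and Isg15 on the minus strand at chr4:156200819-156201018.
Ifit1: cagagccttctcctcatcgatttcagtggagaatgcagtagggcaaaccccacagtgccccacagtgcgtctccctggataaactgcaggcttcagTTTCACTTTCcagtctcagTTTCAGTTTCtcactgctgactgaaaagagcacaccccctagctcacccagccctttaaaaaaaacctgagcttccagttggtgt
Rsad2: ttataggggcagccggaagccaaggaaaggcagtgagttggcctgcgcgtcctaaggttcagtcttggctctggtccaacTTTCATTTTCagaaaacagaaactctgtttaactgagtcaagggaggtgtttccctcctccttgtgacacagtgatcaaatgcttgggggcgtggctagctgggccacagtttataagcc
Isg15: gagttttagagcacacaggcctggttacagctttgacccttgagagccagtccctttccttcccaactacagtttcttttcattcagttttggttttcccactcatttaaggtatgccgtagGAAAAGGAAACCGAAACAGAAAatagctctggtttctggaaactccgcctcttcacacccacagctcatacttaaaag
Ifit1 had 2 matches, from -104 to -95 and from -85 to -76 before the start, Rsad2 had 1, from -120 to -111, and Isg15 had 3 that overlap, between -78 and -57. In a window of 250 bases before to 50 after the start, 25 of the 63 promoters of list genes in the RefSeq table (39.7%) had a match, beside 3.44% of all 32851 promoters in it. Of the 64 list genes 51 were in that table, and 22 of these had a match in 1 or more of their promoters. None of the 6 marker genes S100a8, S100a9, Retnlg, Il1b, Cxcl2 and Fpr1 had a match. With 3.44% over all promoters, 6 promoters are too few for this to be a contrast. The shares were counted from sequence alone, and their link to the ratios of these libraries was not tested. A match is a run of letters and not a measured site.

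The genes with these promoters had little RNA in vehicle cells. Ifit1, which binds foreign RNA, had 658 UMIs in DHT small neutrophils (131 CPM, interval 121 to 141) and 0 in vehicle ones. Set against a floor of 3 counts over the vehicle set, it was 96.3-fold higher, and the lower end of the exact 95% interval of the ratio was 78.1-fold. Rsad2, viperin, was at 159 CPM (148 to 170) and 3.16 CPM (1.27 to 6.52), a 50.1-fold ratio (24.2 to 125). Isg15, which is attached to other proteins much as ubiquitin is, reached 425 CPM (407 to 443) and 23.1 CPM (17.2 to 30.3), an 18.4-fold ratio (14.0 to 24.8). Usp18, which removes Isg15 from proteins and dampens receptor signalling, was at 67.1 and 4.07 CPM (16.5-fold). The intervals cover counting error only, and how many of all genes had intervals that lay apart was not counted.

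The families of antiviral effectors were higher together. Of the oligoadenylate synthetases and their relatives, which sense double-stranded RNA, Oasl2 was at 141 and 4.07 CPM, Oasl1 at 91.7 and 2.71 CPM, Oas3 at 78.2 and 4.97 CPM, and Oas2 at 48.6 and 1.36 CPM. Ifit3, a partner of Ifit1, was at 72.0 and 1.81 CPM. Reads of Ifit3 and Ifit3b, of Oas1a and its neighbours and of the Schlafen genes may be split between near-identical copies, so their separate values are uncertain. Slfn4, a myeloid Schlafen gene, was the most abundant list member at 1078 and 175 CPM, a 6.16-fold ratio (5.56 to 6.85), and Slfn5 was at 181 and 7.23 CPM. The smallest step in that family was in Slfn1, at 345 and 163 CPM. Ifitm3, which blocks entry of viruses at the endosome, was at 867 and 136 CPM, a 6.37-fold ratio (5.67 to 7.18). Bst2, tetherin, was at 81.1 and 17.2 CPM.

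The transcription factors of the pathway were higher too, while its receptors were level. Irf7, a regulator of interferon genes that is itself induced, was at 105 and 7.23 CPM (14.5-fold, 8.85 to 25.6). Stat2 was at 36.3 and 7.69 CPM and Irf9 at 77.4 and 28.0 CPM. The RNA sensors Ddx58 and Ifih1, list members as well, were at 107 and 17.6 CPM and at 52.2 and 6.33 CPM. The receptor genes gave Ifnar1 at 100.2 and 95.4 CPM and Ifnar2 at 179 and 181 CPM, and the kinase Jak1 at 349.99 and 338 CPM. In the list of interferon ligands, receptors and sensors 0 of 15 measured genes were higher and 1 lower, with a median log2 ratio of 0.05. Ifnb1, interferon beta, had 0 UMIs in both libraries in the small and the immature neutrophils. In small neutrophils the 95% interval of a count of 0 reached 0.732 CPM in DHT and 1.67 CPM in vehicle cells.

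Genes best known from interferon gamma and antigen presentation were higher by smaller factors. Of 26 measured, 21 were at least 1.5-fold higher and 0 lower, with a median log2 ratio of 1.10. B2m, the light chain of MHC class I, was at 1407 CPM (1375 to 1440) and 801 CPM (764 to 839), a 1.76-fold ratio (1.67 to 1.85). The class I heavy chain H2-K1 was at 443 and 251 CPM (1.77-fold, 1.61 to 1.94), while H2-D1, at 1226 and 1049.8 CPM, did not reach 1.5-fold. Tap1, which carries peptides to class I, was at 30.8 and 8.14 CPM. The GTPases Igtp and Irgm1 were at 15.3 and 0.452 CPM and at 22.8 and 2.71 CPM. Cxcl10, a chemokine induced by both kinds of interferon, was at 163 and 16.7 CPM (9.73-fold), and 46.3% of its DHT UMIs came from 5 cells.

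**Figure D2:**
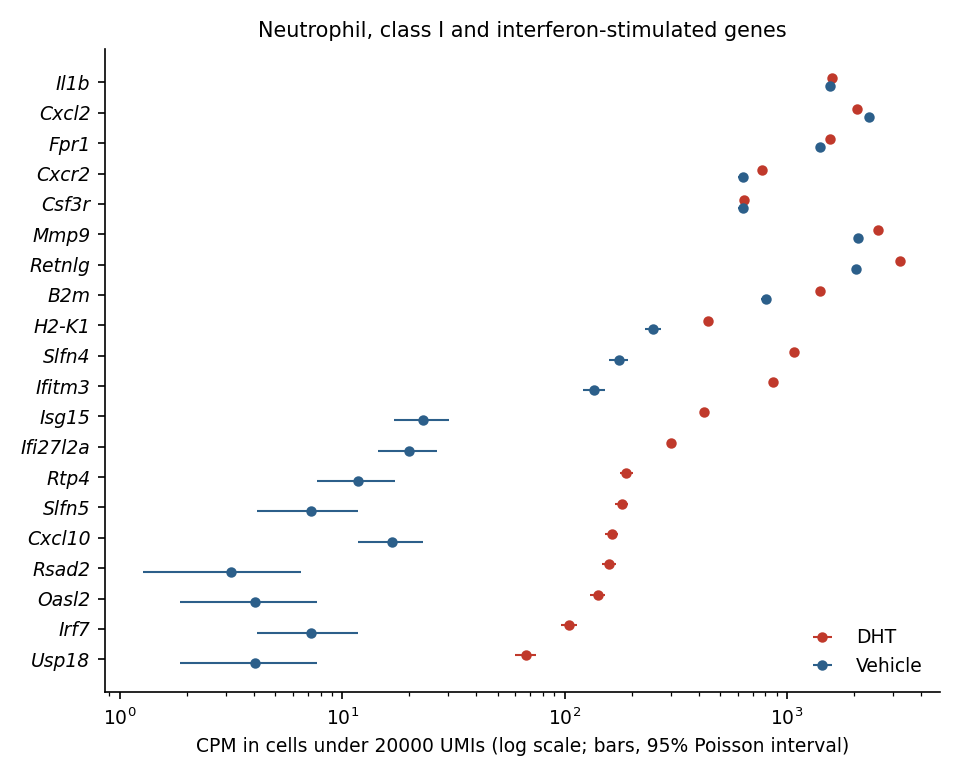
Level in CPM (horizontal axis, log scale) of 20 genes in the small neutrophils of the DHT library (red) and the vehicle library (blue); points are sums over the cells of a library and bars 95% Poisson intervals. Il1b, at 1588 and 1562 CPM, and Csf3r, at 637.5 and 636.6 CPM, lie together, while Isg15 lies at 425 and 23.1 CPM and Irf7 at 105 and 7.23 CPM.

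Cell by cell, the interferon-stimulated genes were spread unevenly over the DHT small neutrophils. To make depths equal, each cell was thinned to 4498 UMIs, and 43 DHT and 80 vehicle cells below that were left out. The 594 DHT cells then had a median of 9 list genes detected, with 3 at the 10th and 26.7 at the 90th percentile. The 292 vehicle cells had a median of 3, with 1 and 7 at these percentiles. Before thinning, the list made up a median of 0.353% of a DHT cell's UMIs (quartiles 0.169 and 0.935%) and 0.103% of a vehicle cell's (0.0646 and 0.148%).

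A few genes show how many cells took part. After thinning, Isg15 was detected in 38.7% of DHT (34.8 to 42.8%) and 4.45% of vehicle cells (2.39 to 7.49%), and before thinning in 44.7% and 5.65%. Ifit1 was detected in 12.5% (9.91 to 15.4%) of DHT and 0 of 292 vehicle cells (0 to 1.26%), and before thinning in 15.5% and 0%. Slfn4 was detected in 75.6% and 44.9%, and before thinning in 85.4% and 49.5%. B-lineage cells, which should lack Slfn4, Retnlg and Il1b but can make Isg15, had Slfn4 in 4.32% of 301 DHT and 0% of 60 vehicle cells at the same depth, and Isg15 in 13.3% and 3.33%. Their median depths were 6269 and 4559 UMIs. Il1b was detected in 90.9% and 93.8% of small neutrophils and in 1.33% and 0% of B-lineage cells.

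**Figure D3:**
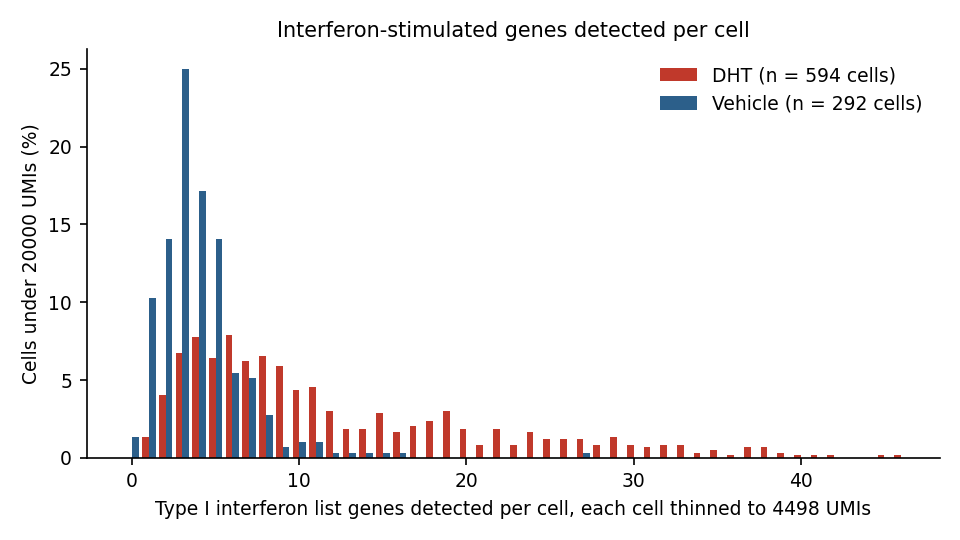
Percent of small neutrophils (vertical axis) by number of type I interferon list genes detected in the cell after thinning to 4498 UMIs (horizontal axis), for 594 DHT cells (red) and 292 vehicle cells (blue). Vehicle cells pile up near their median of 3 genes, while DHT cells spread around a median of 9 with a tail past the 90th percentile of 26.7.

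The difference was also present within each cluster of small neutrophils and in other granulocytic cells. Clusters were not compared in size, since genes that define them, such as Retnlg, differed between the libraries. The median log2 ratio of the type I list was 1.98 in cluster 0 (201 DHT and 142 vehicle cells), 2.51 in cluster 1 (221 and 109) and 2.95 in cluster 3 (206 and 121). It was 1.12 in cluster 2, 0.58 in cluster 4 and 0.49 in cluster 5. Over all larger members it was 0.97, with 40 of 59 measured genes higher and 2 lower (7.74% and 5.63% of all genes at that level). In the immature neutrophils it was 1.58, with 57 of 62 higher and 0 lower (3.63% and 1.58% of all genes). Over all members together, 54 of 61 were higher and 1 lower, with a median of 1.72 (5.70% and 4.31% of all genes). Whether these medians differ between the sets was not tested.

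**Figure D4:**
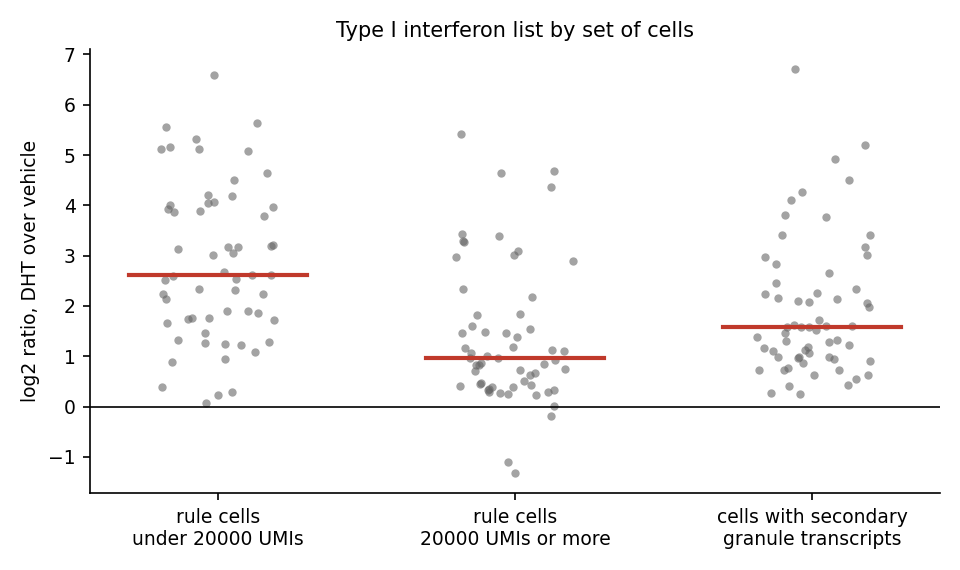
Ratio of DHT over vehicle on the log2 scale (vertical axis) for each measured gene of the type I interferon list (points) in 3 sets of cells, with the median as a red bar. The medians are 2.62 in small neutrophils, 0.97 in chosen cells with 20000 UMIs or more and 1.58 in immature neutrophils.

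Levels in the immature set show where single genes differed. Isg15 was at 130 and 16.2 CPM in immature neutrophils against 425 and 23.1 CPM in small ones, and Slfn4 at 210 and 46.6 CPM against 1078 and 175 CPM. Ifitm3 had a high base level in immature cells, 1247 and 646 CPM, and Ifi27l2a was at 162 and 54.1 CPM there against 302 and 19.9 CPM. Ifit1 was at 50.2 and 1.64 CPM in the immature set. Among 4260 genes tested in both sets, 193 were higher in small and 93 in immature neutrophils, and 70 of these genes were higher in both. None was lower in both. Of all 5678 genes compared in the immature set, 1.99% were higher and 0.229% lower. These sets share no cells but come from the same libraries.

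Over all genes with at least 20 CPM in small neutrophils, 4862 were compared. Of these, 234 (4.81%) were at least 1.5-fold higher with DHT and 105 (2.16%) at least 1.5-fold lower. At 2-fold the numbers were 101 (2.08%) and 16 (0.329%). Leaving out, gene by gene, the 1% of cells with most of its UMIs kept 230 of the 234 and 93 of the 105. It also brought in other genes, so that 296 were then higher and 118 lower. Over all members, 127 of 6118 genes (2.08%) were higher and 39 (0.637%) lower, and at 2-fold 60 (0.981%) and 7 (0.114%). There, leaving out the 1% of cells kept 125 of the 127 higher but only 23 of the 39 lower genes. With genes newly called, 179 were then higher and 33 lower. The 15 highest genes among small neutrophils, led by Ifit1, Rsad2, Oas1a and Ifit3, were all members of the type I list.

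By list medians, surface receptor, NADPH oxidase and tertiary granule genes were nearly level between the libraries. Of 28 surface receptor genes, 3 were at least 1.5-fold higher and 0 lower, with a median log2 ratio of 0.11. The G-CSF receptor Csf3r was at 637.5 and 636.6 CPM, Cxcr2 at 768 and 635 CPM and the lectin Clec4d at 2000.4 and 2229 CPM. The 3 genes past 1.5-fold were the decoy receptor Il1r2, at 93.5 and 50.6 CPM, the leukotriene receptor Ltb4r1, at 33.9 and 11.8 CPM, and Csf2rb2, at 12.1 and 4.97 CPM. Of 7 NADPH oxidase genes, which make the oxidative burst, 0 were higher or lower; Cybb was at 480 and 339 CPM. Among 12 tertiary granule and secretory vesicle genes, Mmp25 was higher at 37.7 and 17.6 CPM, and Mmp9 stood at 2559 and 2091 CPM. Of 12 secondary granule genes outside the rule, 3 (Chil3, Cd177 and Anxa1) were higher and 0 lower, with a median log2 ratio of 0.22. Over all genes at that level 11.5% were higher and 10.9% lower. Whether the libraries differ in the maturity of these cells was not tested.

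Inflammatory mediators did not follow the interferon genes. In the list of NF-kB and cytokine genes, 3 of 35 were higher and 1 lower, with a median log2 ratio of 0.02. The 3 higher ones, Saa3, Casp1 and Nos2, and the lower one, Il23a, were all under 20 CPM. Il1b had a ratio of 1.02 (0.977 to 1.06), Cxcl2 was at 2069 and 2332 CPM and Nfkbia, the inhibitor of NF-kB, at 1130 and 1331 CPM. Tnf was at 119 and 163 CPM, 0.45 lower on the log2 scale (ratio 0.733, 0.642 to 0.837), which is short of 1.5-fold. Among 16 chemokine and receptor genes, 5 were higher and 3 lower; Ccl6, at 110 and 194 CPM, was the lower one with the highest level. Ccl3 was at 391 and 411 CPM.

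Survival, metabolic and steroid-responsive genes were level as well. Of 19 survival and apoptosis genes, Casp8 was higher at 35.7 and 21.2 CPM and Bcl2 lower at 0.992 and 2.71 CPM, while Mcl1, which keeps neutrophils alive, was at 950 and 883 CPM. Of 23 glycolysis and hypoxia genes 0 were higher and 1 lower. Of 11 androgen and steroid response genes 1 was higher and 1 lower, both under 3 CPM. Fkbp5, an androgen and glucocorticoid target, was at 79.4 and 76.4 CPM, and Nr3c1, the glucocorticoid receptor, at 290 and 295 CPM.

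**Figure D5:**
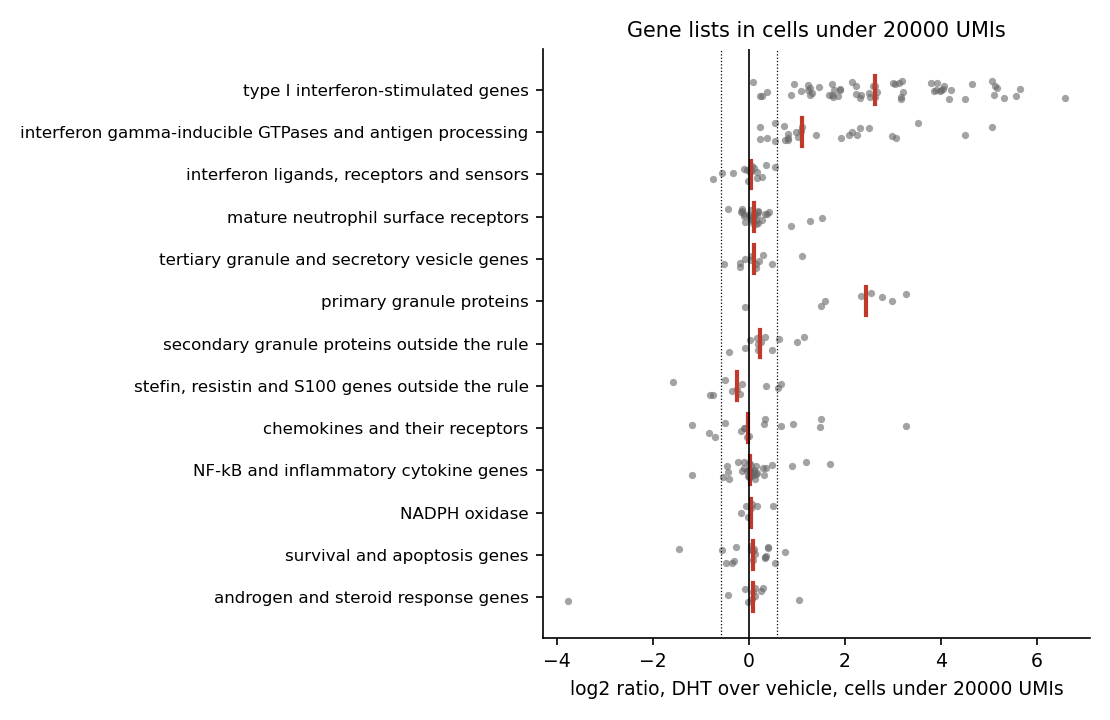
Ratio of DHT over vehicle in small neutrophils on the log2 scale (horizontal axis) for the measured genes (points) of 13 gene lists, with each list's median as a red bar; dotted lines mark 1.5-fold. The type I interferon list (median 2.62), the primary granule list (2.44) and the interferon gamma and antigen list (1.10) lie to the right, and the medians of the other 10 lie between -0.24 and 0.22.

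Retnlg, a resistin-like gene used as a marker of these cells, was at 3230 CPM (3180 to 3280) in DHT and 2040 CPM (1981 to 2101) in vehicle small neutrophils, a 1.58-fold ratio. It was detected in 49.3% and 43.5% of cells after thinning and in 50.4% and 38.2% before. Its ratio was 0.45 on the log2 scale with a limit of 1% for the secondary granule genes and 0.38 in members under 12000 UMIs, which are both short of 1.5-fold. With a limit of 0.25% it was 0.93. Over all members Retnlg was at 1228 and 835 CPM, a 1.47-fold ratio. In the immature set it was at 1007 and 1002 CPM.

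The stefins, cysteine protease inhibitors encoded by a cluster of close copies, went both ways. Csta2 was at 91.3 and 273 CPM (0.334 of vehicle, 0.295 to 0.378), and Stfa1 at 147 and 258 CPM. Stfa2, in contrast, was at 143 and 93.6 CPM, and Stfa2l1 at 1154 and 1364 CPM. These transcripts sat in few cells: Csta2 in 65 DHT and 38 vehicle cells, and Stfa1 in 42 and 21, with 50.1% and 65.1% of its UMIs in the top 5 cells. Their reads may be split among copies, so single values are uncertain. Of the 11 measured stefin, resistin and S100 genes outside the rule 2 were higher and 3 lower, the third lower one being S100a10, at 61.3 and 103 CPM.

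Several genes past 1.5-fold had most of their UMIs in a handful of cells with RNA of other cell types. The B cell genes Cd79a, Ebf1 and Bach2 were lower with DHT, at 0.397 and 23.5, 11.9 and 52.9, and 8.33 and 48.4 CPM, and came from 6, 5 and 6 vehicle cells. Summed, the 7 B cell markers stood at 21.6 and 145 CPM. Without members that held more than 2 B cell marker UMIs, the log2 ratio of Ebf1 was 1.11 and that of Bach2 0.37. Elane was at 68.1 and 8.59 CPM, with 82.2% of its DHT UMIs in 5 cells, and 7 of 8 primary granule genes were at least 1.5-fold higher (median log2 ratio 2.44, sum 336 and 86.8 CPM). Ctsc, cathepsin C, which activates granule proteases, was spread over more cells than Elane. It was at 84.1 and 28.0 CPM, in 30.0% of DHT and 12.6% of vehicle cells, with 10.1% of its DHT UMIs in 5 cells. Its log2 ratio was 1.60 in the cells of clusters 0, 1 and 3. In the cells of clusters 0, 1 and 3 Elane had a log2 ratio of 0.50. Its detection after thinning, 6.06% and 4.11% of small neutrophils, was in DHT cells no higher than the 6.98% of B-lineage cells, which had it in 1.67% in the vehicle library. The order of Elane turned with a limit of 30000 UMIs, which adds 5 DHT and 12 vehicle cells: its log2 ratio was then -3.64, and 569 genes were lower.

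Markers of other cells were otherwise low in small neutrophils. The 8 macrophage markers summed to 154 and 93.6 CPM, with C1qa and Mertk at 0 in vehicle cells, and the 10 osteoclast markers to 2690 and 2251 CPM, of which Mmp9, also a neutrophil gene, made up most. The 7 monocyte markers summed to 1019 and 707 CPM; among them Ly6c2, also induced by interferon, was at 549 and 292 CPM. The platelet factor gene Pf4 was at 60.3 and 20.8 CPM. The 7 T or NK cell and 7 erythroid markers each summed to under 4 CPM. Their part in the interferon result was not tested. The list median was 2.65 without members over 0.1% osteoclast and macrophage marker UMIs other than Mmp9, and 3.23 after free RNA was subtracted. Free RNA was taken as the profile of passing barcodes outside the rule, scaled by the median of 17 markers. Single markers gave shares from 0 to 107% in DHT and from 0 to 150% in vehicle cells. The amount subtracted, and with it the value of 3.23, is therefore uncertain.

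Other genes were also at least 1.5-fold lower with DHT in the small neutrophils. They included the histone genes Hist1h2bc, at 83.7 and 157 CPM, Hist1h1c, at 32.1 and 64.7 CPM, and Hist1h1e, at 10.7 and 26.2 CPM. Ldlrad4, an inhibitor of TGF-beta signalling, was at 20.04 and 51.5 CPM. Cd74, the invariant chain of MHC class II, was at 42.1 and 99.5 CPM, with 46.4% of its vehicle UMIs in 5 cells. Over all members the lowest ratios were those of Bach2, Ebf1, Csta2, Plxna4 and Ctsk. For each of these genes, 5 vehicle cells held between 58.5% (Ctsk) and 98.3% (Ebf1) of its vehicle UMIs. Only 24 of the 154 vehicle UMIs of Plxna4 and 54 of the 207 of Ctsk were in small neutrophils.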

How the data were processed

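The authors deposited 1 matrix of UMI counts per library, with 32285 genes, from droplet 3′ single-cell libraries (10x Genomics v3.1 kit, per the labels' protocols). The submitters' processing notes name Cell Ranger 7.0.1 and the builds GRCh38 and mm10; the cell calling, strand and intron settings were not stated in those notes or the labels. The matrices hold mouse genes. Within each library, a set's counts were added up, then divided by the set's total to give CPM, with exact Poisson intervals. Ratios have exact conditional binomial intervals. With 1 library per group a gene was called at 1.5-fold or more if it had at least 20 CPM in 1 or both libraries. Lists were counted from 2 CPM. The chosen cells and the gene lists were set with earlier results of these data known.

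Genes named by rule were the 15 with the highest and the 15 with the lowest ratios called in members, the rule and marker genes, the 15 most abundant genes, up to 8 called and the 3 most abundant members of each list, the 8 highest and the 8 lowest against immature neutrophils, cluster leaders, and the top markers of other cells. Other named genes were chosen after their values were seen. The 20000 UMI limit was also set after the data were seen. Scrublet called 203 DHT and 156 vehicle doublets, 14 and 6 of them members, which were kept. Clusters came from Leiden at resolution 0.5 on 2000 variable genes and 30 components. On simulated counts with 2-fold and 3-fold changes all 50 genes of each kind and direction were called in small neutrophils. Of 4581 unchanged genes, 29 were called. The simulation held counting error only, without spread between cells, cultures or libraries. It therefore gives no rate of false calls for the real libraries. B-lineage cells were passing barcodes with at least 0.1% of their UMIs from B cell marker genes and under 3% S100a8 and S100a9. Some genes are not reported here. Tools were Python 3.11.15, scanpy 1.11.5, leidenalg 0.10.2, scipy 1.17.1, R 4.3.3 and edgeR 4.0.16 (TMM scaling only). Alternatives changed the limits of the rule, doublets, scaling, thinning, free RNA and the call limits.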

Additional observations from a re-analysis of the deposited data

Results flagged for a closer look

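Stfa1, a stefin of the cluster of close copies, had opposite directions in the neutrophil sets. Its DHT over vehicle ratio on the log2 scale was -0.82 in small neutrophils (147 and 258 CPM) and 1.06 in immature neutrophils (22.5 and 10.8 CPM). The difference between the sets was not tested, each set has 1 library per group, and its UMIs in small neutrophils sat in 42 DHT and 21 vehicle cells.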

How the results depend on the processing

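The type I interferon list median stayed between 2.51 and 3.23 in small neutrophils over 22 alternatives, and between 1.51 and 2.51 over all members in 19, with 2.51 from the mean of each cell's CPM. The DHT over vehicle ratio of shares stayed between 1.86 and 2.03. Alternatives on B cell RNA, on the 12000 and 30000 UMI limits, on clusters 0, 1 and 3 and on the 1% of cells were chosen after seeing the data. No paired analysis was possible because each group is 1 library. Leiden resolutions of 0.3 and 0.8 gave 5 and 8 clusters. With S100a8 and S100a9 at 2%, members were 11.5% of DHT barcodes and 67 genes were lower in them. At 5%, shares were 8.63% and 4.56% and 206 genes were higher. At 10%, shares were 6.57% and 3.53%, 214 genes were higher and 72 lower in members, and 181 lower in small neutrophils. Secondary granule limits of 0.25% and 1% gave DHT shares of 9.03% and 10.6%, and the latter a vehicle share of 5.66%. At 2000 UMIs and 1000 genes the DHT share was 10.8%. A limit of 30000 UMIs gave 569 lower genes in small neutrophils, and free RNA subtraction 59 in members. Higher and lower genes numbered, in members and then small neutrophils, 220 and 93, 410 and 272 from 10 CPM, 35 and 20, 118 and 29 from 50 CPM, 1530 and 1349, 1707 and 1524 from 1 UMI, and 60 and 7, 101 and 16 at 2-fold. Directions (log2) turned for Ckb in members at 5% S100 (0.059). Without the 10% highest Scrublet scores they turned for Bach2 (0.64 in members, 0.61 in small neutrophils) and Ebf1 (1.68 and 1.90). Without B cell RNA they turned for Ebf1 (0.22 and 1.11), and in small neutrophils for Bach2 (0.37) and Ighm (0.22); without the 1% of cells, for Ebf1 in members (0.10). With the 30000 UMI limit Elane (-3.64), Prtn3 (-3.36), Ctsg (-2.90), Mpo (-3.05), Chil3 (-2.10), Ly6c2 (-0.12), Psmb8 (-0.10) and Top2a (-0.0074) turned, and Chil3 (-2.33) with free RNA subtracted. The cause of these changes was not tested. Depth limits genes under about 20 CPM, whose ratios rest on few UMIs.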
